A study of Mus musculus with 5 samples.

Results

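The S100 proteins are a family of small calcium-binding proteins, and 8 of their genes were followed here: S100a1, S100a4, S100a6, S100a8, S100a9, S100a10, S100a11 and S100g. They were taken by symbol from the 28692 genes listed in the droplet matrices. The rule itself uses no measured value, but the members were chosen with earlier results of these data known. The kidneys came from 8-week C57/BL6 mice with unilateral ureteric obstruction (UUO), a reversible block of urine outflow on one side. Sham-operated kidneys (day 0) were compared with kidneys obstructed for 2 days, kidneys obstructed for 7 days, and kidneys taken 7 days after the block was reversed, which is experimental day 14 (reversed UUO). Each group was 1 droplet library of live cells from 3 pooled mice, with no label that ties a cell to a mouse. There is therefore no replicate and no test between groups, and every interval below covers counting error only. A further sample of 768 wells made by the Smart-seq2 method mixed all time points and is described in the closing section.

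S100 proteins bind calcium through EF-hand loops, change shape, and then attach to partner proteins. S100a8 and S100a9 pair as calprotectin, a protein that fills the cytoplasm of neutrophils and monocytes and, once released, signals through receptors such as Tlr4 and Ager. S100a4, S100a6, S100a10 and S100a11 work mostly inside cells with non-muscle myosin and annexins, and S100g is a vitamin D-responsive calcium buffer that carries calcium across absorbing epithelium, in the kidney mainly in the distal nephron. In the GENCODE annotation of GRCm38, 7 of the 8 genes lie on chromosome 3 within 3.05 Mb and S100g lies on the X chromosome. S100a1 (chr3:90511034-90514392, minus strand), S100a4 (chr3:90603771-90606045, plus), S100a6 (chr3:90612882-90624181, plus), S100a8 (chr3:90668978-90670035, plus) and S100a9 (chr3:90692632-90695721, minus) fall within 0.185 Mb. S100a11 (chr3:93520488-93526287, plus) and S100a10 (chr3:93555080-93564643, plus) lie further along, and S100g is at chrX:162961992-162964599 on the minus strand. S100a4 overlaps Gm42674 on the same strand, so reads shared with it could not be told apart here, and S100g overlaps Ctps2 on the other strand.

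The proximal promoters of 4 members that the results below turn on are shown for reference, each with 250 bases before and 50 after the RefSeq start on GRCm38.p6, written 5′ to 3′ on the gene's own strand. Capitals mark TATAAA in S100a8, S100a9 and S100g, and the AP-1 motif TGANTCA in S100a11.
S100a8, chr3:90668821-90669120, plus strand: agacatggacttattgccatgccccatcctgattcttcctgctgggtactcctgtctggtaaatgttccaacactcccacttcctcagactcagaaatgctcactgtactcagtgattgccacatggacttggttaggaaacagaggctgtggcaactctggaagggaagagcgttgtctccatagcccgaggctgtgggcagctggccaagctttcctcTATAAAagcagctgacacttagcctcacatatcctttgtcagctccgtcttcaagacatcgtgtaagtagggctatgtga
S100a9, chr3:90695672-90695971, minus strand: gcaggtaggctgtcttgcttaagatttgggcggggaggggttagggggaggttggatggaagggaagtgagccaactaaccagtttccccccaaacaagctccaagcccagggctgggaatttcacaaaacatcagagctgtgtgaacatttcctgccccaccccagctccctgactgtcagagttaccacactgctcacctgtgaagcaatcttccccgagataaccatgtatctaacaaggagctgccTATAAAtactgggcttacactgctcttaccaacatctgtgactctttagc
S100a11, chr3:93520246-93520545, plus strand: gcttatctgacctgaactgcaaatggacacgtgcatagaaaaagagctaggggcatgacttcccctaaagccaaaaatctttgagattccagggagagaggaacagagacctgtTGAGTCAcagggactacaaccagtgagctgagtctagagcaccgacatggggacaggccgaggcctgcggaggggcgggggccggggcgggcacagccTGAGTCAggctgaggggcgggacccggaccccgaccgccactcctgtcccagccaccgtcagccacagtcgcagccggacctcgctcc
S100g, chrX:162964550-162964849, minus strand: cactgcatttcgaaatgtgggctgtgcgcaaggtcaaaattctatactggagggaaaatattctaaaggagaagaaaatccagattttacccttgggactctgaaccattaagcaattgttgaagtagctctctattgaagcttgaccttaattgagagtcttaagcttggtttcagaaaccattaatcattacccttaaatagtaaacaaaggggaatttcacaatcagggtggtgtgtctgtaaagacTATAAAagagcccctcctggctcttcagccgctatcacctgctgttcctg
Searched on both strands, TATAAA was found in 4 of the 7 members with a RefSeq promoter (S100a4, S100a8, S100a9 and S100g), against 13.6% of all 32851 promoters of this length. In S100a8 and S100a4 it began at bases -30 and -31 from the start, and in S100a9 and S100g at the annotated start itself. TGANTCA was found in 1 of the 7, S100a11, with 2 matches, the nearer of them at -38, against 7.81% of all promoters. TTGCNNAA, a letter string like that bound by C/EBP factors, was in 2 of the 7 (S100a9 and S100g) against 10.8%, and GAGGAA, like that bound by PU.1, in 3 of the 7 (S100a4, S100a8 and S100a11) against 28.3%. A match says only that the letters are present.

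Cells were placed in neutrophil, phagocyte and tubule gates by marker genes that include no member. The neutrophil gate held 0 of 3753 kept sham cells, which allows a share of up to 0.0982% (exact binomial upper bound), and 12, 23 and 10 cells on day 2, day 7 and after reversal. The phagocyte gate held 62, 524, 2354 and 622 cells from sham to reversed UUO, and the tubule gate 3320, 1198, 762 and 1644. Kept cells had median depths of 2668, 6531, 5645 and 4869 UMIs (unique molecular identifiers, 1 per captured transcript), and tubule cells had median mitochondrial shares of 34.9, 20.8, 10.99 and 28.0%, so sham was the shallowest library. Each pair of libraries shared 8 to 23 kept cell barcodes. All 10 neutrophil markers were detected in the day 2 and day 7 gates and 8 of 10 in the reversed gate, which the gate rule itself favours. Among leading genes that the gates did not use were Slpi in neutrophils, Ctss, Cd74 and Lyz2 in phagocytes, and Miox in tubule. Levels are CPM (UMIs of a gene for every 1e6 UMIs) of the summed cells of a gate, and since a 3′ tag is counted once per transcript they can be compared between genes without correction for length.

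S100a8 and S100a9, the calprotectin subunits, stood far above every other member in neutrophils. S100a8 reached 83408 CPM on day 2 (95% Poisson interval from 80606 to 86283), 60764 on day 7 (from 58828 to 62749) and 40734 in reversed UUO (from 38526 to 43036). S100a9 was at 60407, 40929 and 26067 CPM in the same order. As sums, both were highest on day 2 and lowest after reversal, and the intervals of the 3 libraries did not overlap. For S100a8 the order of days 2 and 7 rests on few cells: 1 of 12 day 2 cells held 34.2% of the UMIs and 3 held 60.7%. Without the highest cell of each library S100a8 was at 62343, 55666 and 34784 CPM, and without the 3 highest at 45544, 46775 and 32450 CPM, where days 2 and 7 overlapped. S100a9 without the 3 highest was at 38774, 31587 and 18633 CPM, in the order of the sums.

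Single neutrophils varied widely. The median cell gave 4.87, 4.84 and 3.51% of its UMIs to S100a8 and 4.53, 3.65 and 2.36% to S100a9; the S100a8 medians of days 2 and 7 were close. S100a8 and S100a9 together made up between 0 and 38.9% of the UMIs of a cell on day 2, with a median of 9.44% over 12 cells. The median was 8.06% over the 23 cells of day 7 (range 0.0290 to 31.7%) and 5.93% over the 10 reversed cells (0.682 to 17.1%). The ranges of single cells overlapped throughout. The summed level of the 10 neutrophil markers was 30627, 19803 and 7365 CPM, also lower in each later library. Retnlg alone held 698 of 1229, 440 of 1213 and 40 of 230 of these marker UMIs, at 17394, 7183 and 1281 CPM. The sum is therefore not read as a trend of the whole list. Counted per Retnlg UMI, S100a8 and S100a9 instead went from 8.27 on day 2 to 14.2 on day 7 and 52.2 after reversal. The last value rests on 40 Retnlg UMIs. Of the 45 neutrophils, 28 lie near the gate's limit and leave it when the margin is doubled, and the part of the gate's limit in these differences was not tested, since the doubled margin leaves 5, 9 and 3 cells. The doubled margin also removes 7.74, 28.7, 58.0 and 16.2% of tubule cells from sham to reversed UUO, and 29.0% of sham phagocytes against 8.03 to 10.1% in the other libraries.

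S100a6 and S100a11 were the next members in neutrophils. S100a6 was at 4934, 2579 and 2017 CPM, highest on day 2, and without the 3 highest cells at 2864, 1983 and 1185, where days 2 and 7 overlapped. S100a11 was at 4909 and 5192 CPM on days 2 and 7 and at 2882 after reversal, with overlapping intervals on the first pair of days. S100a4 had 1, 3 and 1 UMIs in the whole gate and S100a10 had 9, 3 and 2, with upper bounds of 139, 143 and 178 CPM for S100a4.

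A ratio between libraries was called past 2-fold where both libraries held at least 10 cells, the gene had at least 30 UMIs in all, and the log2 ratio of CPM + 1 was at least 1 in size. In neutrophils none of the 8 members passed between day 2 and day 7, where 24.7% of all 450 genes with enough UMIs did, and none between day 7 and reversal, where 23.4% of 445 did. Only 4 of the 8 had 30 UMIs in either comparison. Their log2 ratios were -0.46 (-0.52 to -0.39) for S100a8, -0.56 for S100a9, -0.94 for S100a6 and 0.08 for S100a11 from day 2 to day 7. From day 7 to reversal they were -0.58, -0.65, -0.35 and -0.85.

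**Figure D1:**
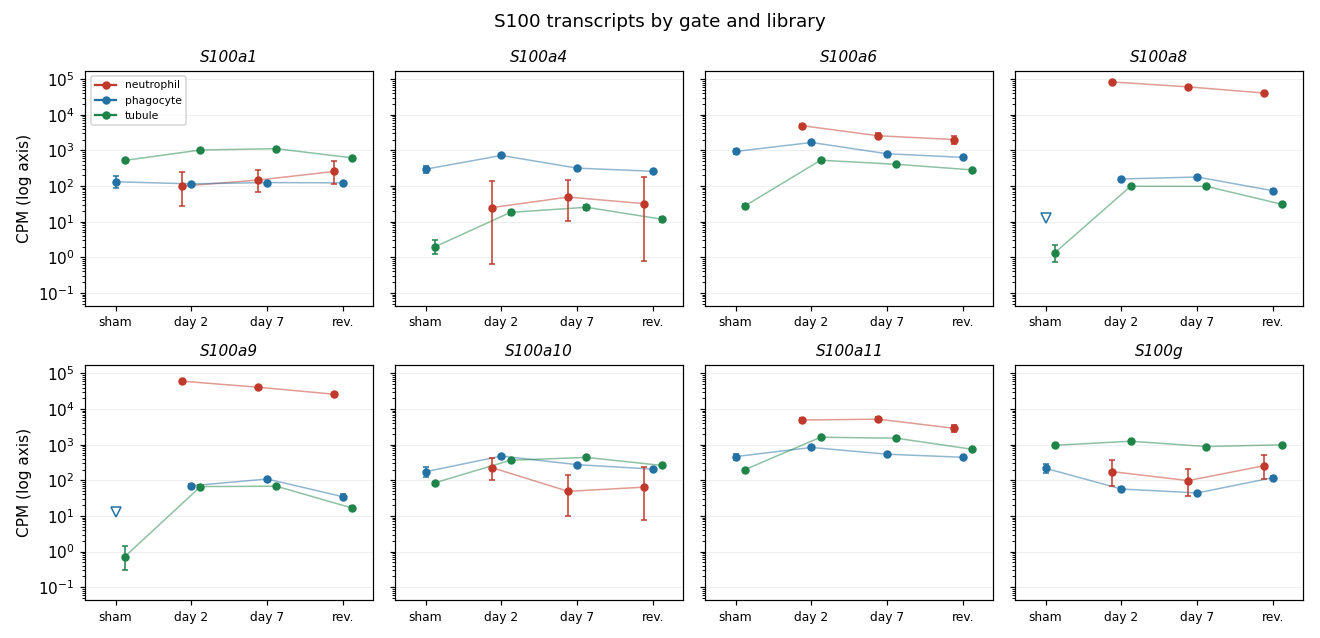
Level of each of the 8 S100 genes (CPM of summed UMIs, log axis) in the neutrophil, phagocyte and tubule gates of the sham, UUO day 2, UUO day 7 and reversed (rev.) libraries; bars are 95% Poisson intervals and open triangles mark the limit of 3 counts where no UMI was found. S100a8 and S100a9 in neutrophils lie between 26067 and 83408 CPM, far above both other gates, while S100g and S100a1 are highest in tubule.

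Calprotectin UMIs were also found outside the neutrophil gate, in every gate of the 3 obstructed or reversed libraries with at least 30 cells. Of all S100a8 UMIs in kept cells, neutrophils held 59.6% on day 2, 41.5% on day 7 and 46.3% after reversal, and cells in no gate held 6.36, 13.3 and 20.01%. The phagocyte gate had 0 S100a8 UMIs in sham and 158, 179 and 73.6 CPM afterwards. The tubule gate had 1.33 CPM in sham and 98.5, 97.99 and 30.6 CPM, and endothelium had 0, 76.4, 103 and 118 CPM. In all kept sham cells together there were 17 S100a8 and 10 S100a9 UMIs.

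With each cell thinned to 1000 UMIs, 15.5% of day 2 phagocytes had an S100a8 UMI, beside 8.26% of tubule, 9.66% of endothelial and 10.4% of T cells. On day 7 the shares were 11.1, 7.09, 8.62 and 10.2%, and after reversal 3.05, 2.55, 3.42 and 5.43%. The corresponding share of neutrophils was 91.7, 95.7 and 100%. After reversal the phagocyte share lay between those of tubule and endothelium, so no expression is read from it. On day 7 its interval (9.89 to 12.5%) lay above that of tubule (5.37 to 9.15%) and overlapped that of T cells (6.97 to 14.4%). On day 2 the phagocyte interval (12.5 to 18.8%) lay above that of tubule (6.77 to 9.97%) and overlapped those of endothelium and T cells. Without thinning, at median depths of 10267.5 and 6174 UMIs, 70.4% of phagocytes and 43.7% of tubule cells had an S100a8 UMI on day 2.

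The proportion of the calprotectin pair that is S100a8 gives another view of the same UMIs. In neutrophils S100a8 made up 58.0% (exact binomial interval 56.7 to 59.3%), 59.8% and 61.0% of S100a8 plus S100a9. Tubule cells had 59.6% (57.1 to 62.2%), 59.0% and 64.7%, macrophages 62.8, 60.9 and 61.5%, and T cells 56.8, 59.7 and 68.5%. The intervals of tubule cells, macrophages and T cells overlapped that of neutrophils in all 3 libraries. Ly6c2-high monocytes, the blood-derived monocytes that enter inflamed tissue, differed: 78.3% (74.3 to 82.0%) on day 2, 71.1% (68.0 to 74.0%) on day 7 and 75.4% (68.8 to 81.2%) after reversal. Their intervals lay above those of neutrophils in all 3 libraries. Without the 3 cells with the most calprotectin UMIs in each library the share was 69.3% (63.8 to 74.4%), 70.9% (66.9 to 74.6%) and 66.7% (44.7 to 84.4%), and after reversal the interval then overlapped that of neutrophils.

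**Figure D2:**
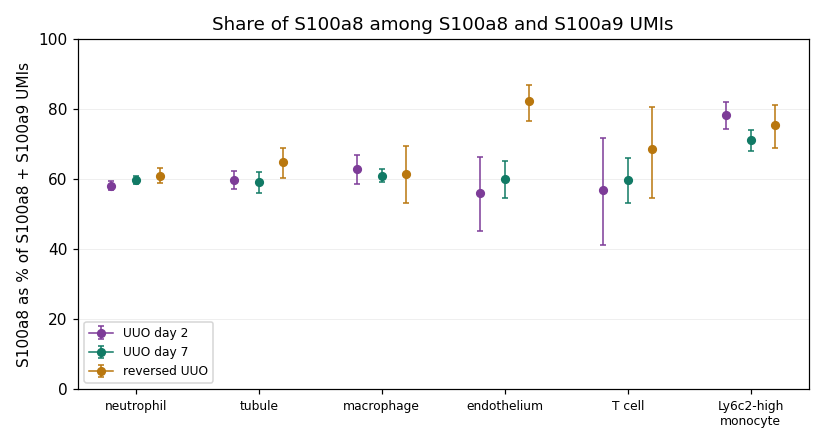
Share of S100a8 among S100a8 and S100a9 UMIs (percent, axis from 0) in 6 cell types on UUO day 2, day 7 and after reversal, with exact binomial 95% intervals. Neutrophils lie between 58.0 and 61.0%, Ly6c2-high monocytes between 71.1 and 78.3%, and reversed endothelium at 82.1%.

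Neutrophil markers were looked for in the same cells. Phagocytes with none of the 10 neutrophil markers had 155, 194 and 58.0 CPM of S100a8 plus S100a9 on day 2, day 7 and after reversal, against 228, 288 and 108 CPM for the whole gate. Tubule cells without a neutrophil marker had 147, 142 and 42.3 CPM, close to their whole gate at 165, 166 and 47.2. Phagocytes with at least 3 neutrophil markers (19, 46 and 2 cells) had 1153, 3313 and 2957 CPM. Marker-free endothelial cells had 145, 171 and 49.0 CPM, with intervals that overlapped those of marker-free phagocytes in all 3 libraries, while marker-free tubule cells overlapped them on day 2 only and were lower in the other two libraries. When an estimate of free RNA was subtracted, the log2 ratios of S100a8 to sham in tubule were 5.13 on day 2 and 2.98 after reversal, against 5.41 and 3.76 without it.

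Single cells held much of the signal in some groups. In reversed endothelium, 2 of 351 cells held 148 of the 193 S100a8 UMIs, and without them the level was 27.8 CPM (20.3 to 37.2) and the S100a8 proportion 60%. Ly6c2-high monocytes had 273, 615 and 606 CPM of S100a8, and the 3 day 7 cells with the most of both genes together held 166, 61 and 35 S100a8 UMIs against 9, 56 and 40 S100a9 UMIs. After reversal 3 of 35 monocytes held 89.3% of the S100a8 UMIs and 28 had none. Without the 3 cells of each library with the most S100a8, its level in these monocytes was 161, 357 and 71.4 CPM. Monocytes without a neutrophil marker had 161, 273 and 47.2 CPM of both genes together. Ace-positive monocytes, the patrolling type, were second to neutrophils for S100a8 at 1254, 3098 and 827 CPM, but on days 2 and 7 the summed S100a8 and S100a9 of cells with fewer than 3 neutrophil markers was 142 to 374 CPM against 12932 and 11967 CPM in the 3 and 9 cells with more. After reversal no Ace-positive monocyte had 3 neutrophil markers, and the 7 without any had 883 CPM, of which 1 cell held 36 of 37 UMIs. Without the 3 highest cells Ace-positive monocytes had 81.3, 1382 and 15.4 CPM of S100a8.

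In the phagocyte gate as a whole, 5 of the 8 members were past 2-fold on day 2 against sham, where 26.7% of 8982 genes were. S100a4, S100a8, S100a9 and S100a10 were higher and S100g was lower, but without the 3 sham cells with the most S100g, which held 49.0% of 51 UMIs, its log2 ratio was -0.98 in place of -1.91. The median log2 ratio was 1.06 for the members and 0.17 for all genes tested. S100a8 was at least 12.4-fold and S100a9 at least 5.51-fold higher, taking 3 counts over the sham gate as the limit, and the median is the same with both at these bounds. From day 2 to day 7, 2 members were past 2-fold (10.0% of all genes), S100a4 and S100a6, both lower. From day 7 to reversal S100g was higher and S100a8 and S100a9 lower, 3 of 8 beside 3.17% of all genes, and between reversed and sham S100a8 and S100a9 alone were higher, 2 of 8 beside 22.8%. The medians of the members in these 3 comparisons were -0.49, -0.31 and -0.08, beside 0.04, -0.01 and 0.12 for all genes. From day 7 to reversal S100a8 plus S100a9 also went from 187 to 55.1 CPM in T cells, where S100g was higher too. No change particular to phagocytes is therefore read from these genes between day 7 and reversal.

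S100a4, which binds non-muscle myosin and marks motile leukocytes, was at 297 CPM in sham phagocytes, 721 on day 2, 318 on day 7 and 259 after reversal. S100a6, a partner of annexins and of the calcyclin-binding protein, was at 934, 1669, 804 and 637 CPM. S100a10, the partner of annexin A2, was at 174, 478, 274 and 205 CPM, and S100a11, which binds annexin A1, at 463, 834, 539 and 442 CPM. All 4 were highest on day 2 with intervals clear of the other libraries. The makeup of the gate also differed between libraries: Ly6c2-high monocytes were 11.3, 28.8, 6.84 and 5.63% of phagocytes and macrophages 53.2, 50.6, 74.5 and 66.7%. In the gate sum, a different mix of cells and a different level per cell cannot be told apart.

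Within single subclasses the 4 genes separated macrophages from monocytes. In macrophages S100a4 was not detected in the 33 sham cells (0 UMIs, which allows up to 30.9 CPM) and was at 502, 154 and 92.5 CPM on day 2, day 7 and after reversal. S100a6 was at 51.5, 1352, 504 and 369 CPM, S100a10 at 20.6, 427, 205 and 153, and S100a11 at 72.1, 578, 314 and 222. Macrophages of day 2 were thus the highest for all 4, with S100a6 26.3-fold and S100a10 20.7-fold above sham on 5 and 2 sham UMIs, and S100a4 at least 16.3-fold above.

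Ly6c2-high monocytes differed little between days 2 and 7. S100a4 was at 1167, 1203, 1135 and 1143 CPM and S100a6 at 2916, 2502, 2525 and 2237. S100a10 was at 583, 624, 649 and 521 CPM and S100a11 at 875, 1166, 1124 and 848. S100a11 after reversal (737 to 971) lay below days 2 and 7 with no overlap, and the 4 intervals of S100a4 overlapped. The sham values rest on 7 cells. From day 2 to day 7 the monocyte log2 ratios were -0.08 (-0.19 to 0.02) for S100a4, 0.01 (-0.06 to 0.09) for S100a6, 0.06 (-0.09 to 0.20) for S100a10 and -0.05 (-0.16 to 0.06) for S100a11, while those of macrophages were -1.70, -1.42, -1.05 and -0.88. The intervals of the 2 cell types did not overlap for any of the 4 genes, and the difference itself was not tested.

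**Figure D3:**
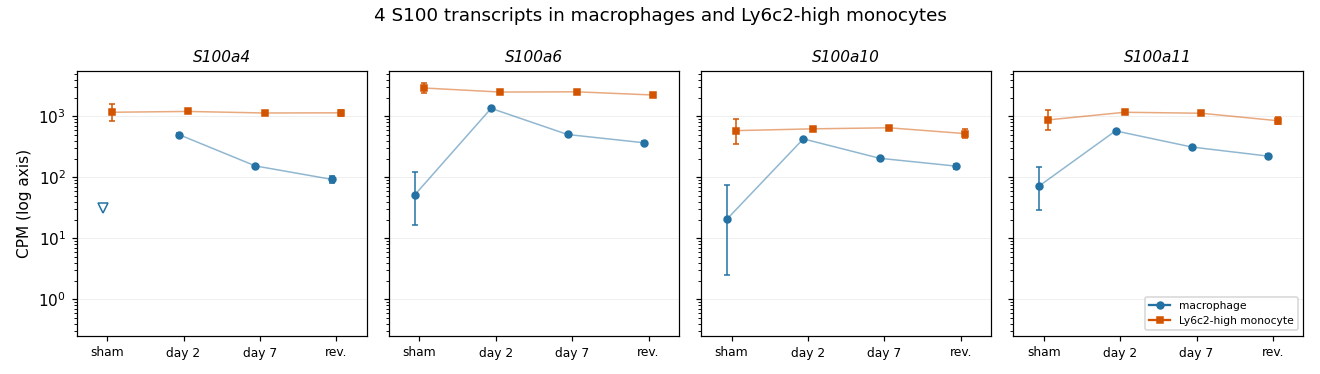
Levels (CPM, log axis) of S100a4, S100a6, S100a10 and S100a11 in macrophages (circles) and Ly6c2-high monocytes (squares) by library, with 95% Poisson intervals; the open triangle is the limit of 3 counts for sham macrophages. Monocytes stay between 1135 and 1203 CPM for S100a4, while macrophages go from 502 on day 2 to 92.5 in reversed UUO.

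Counted over all 8 members, macrophages had 3 past 2-fold from day 2 to day 7 (S100a4, S100a6 and S100a10, all lower; 14.0% of all genes) and 3 from day 7 to reversal (S100g higher, S100a8 and S100a9 lower; 4.46%). Ly6c2-high monocytes had 2 from day 2 to day 7 (S100a8 and S100a9, both higher; 8.37%) and 1 from day 7 to reversal (S100g, higher; 7.18%). From day 7 to reversal S100a8 plus S100a9 went from 223 to 47.8 CPM in macrophages and from 187 to 55.1 CPM in T cells. The median S100g level over cell types with at least 10 cells went from 49.5 to 138 CPM. No change particular to macrophages or monocytes is therefore read from the counts of day 7 to reversal. Dendritic cells differed among themselves in S100a4. Type 2 conventional dendritic cells had 416, 1092, 801 and 718 CPM and Ccr7-positive dendritic cells 952 and 1035 in the last 2 libraries. Type 1 conventional dendritic cells, which cross-present antigen, had 17.2, 46.7 and 17.9 CPM in the 3 later libraries, beside 18.2, 25.3 and 11.7 CPM in tubule.

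S100g in phagocytes was at 217, 56.8, 44.1 and 119 CPM. Endothelium had 95.6, 64.7, 46.6 and 113 CPM and T cells 118, 66.7, 40.2 and 144 CPM. All 3 gates were higher in sham and reversed UUO than on days 2 and 7, although the sham T cell value rests on 5 UMIs and its interval (38.4 to 276) spans the values of both days. Thinned shares of phagocytes with an S100g UMI were 16.1, 4.96, 4.46 and 13.7% beside 6.31, 5.52, 5.17 and 14.0% of endothelial cells. In the 3 later libraries the phagocyte share was at or below that of endothelium, so no expression is read from it. In sham it was above that of endothelium, with 17 of the 51 UMIs in 1 cell, and T cells had 16.7% on 18 cells.

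In the tubule gate 6 of the 8 members were past 2-fold on day 2 against sham, where 25.5% of 11887 genes were: S100a4, S100a6, S100a8, S100a9, S100a10 and S100a11, all higher. The median log2 ratio was 2.86 for the members and 0.51 for all genes. None passed from day 2 to day 7 (7.97% of all genes; median 0.01), and 4 were lower after reversal than on day 7 (S100a4, S100a8, S100a9 and S100a11; 9.39%). With TMM factors only S100a8 and S100a9 stayed past 2-fold, at -1.31 and -1.63, and S100a4 and S100a11 were at -0.73 and -0.69. The same 6 genes were higher after reversal than in sham, where 20.9% of all genes passed, with a median of 2.00 beside 0.46.

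Sham tubule had 27.4 CPM of S100a6, and the 3 later libraries 530, 408 and 284 CPM. S100a11 was at 198, 1616, 1518 and 743 CPM and S100a10 at 84.6, 365, 439 and 260 CPM. All 3 were lowest in sham and second lowest after reversal, with no overlap of intervals between those libraries and the rest. The log2 ratios of day 2 to sham were 4.22 (4.06 to 4.39), 3.03 (2.96 to 3.09) and 2.10 (1.99 to 2.20), and those of reversed to sham 3.32, 1.91 and 1.61. S100a4 in tubule stayed low at 1.95, 18.2, 25.3 and 11.7 CPM beside 721 CPM in phagocytes of day 2. When an estimate of free RNA was subtracted, no S100a4 was left on day 2 or after reversal. The ratio to sham of -0.24 that results in both is set by the added 1 CPM and the sham remainder, so no direction is read from it. Scaling by edgeR's TMM factors instead of total UMIs lowers tubule ratios to sham by up to 0.54 on day 2 and 0.53 after reversal. The shift is smaller for genes at a few CPM, since 1 CPM is added to each level. S100a6, S100a11 and S100a10 still stood higher than in sham. TMM scaling turns the S100g ratio of day 2 from 0.38 to -0.16, and the ratios of reversed UUO to sham from 0.24 to -0.29 for S100a1 and from 0.05 to -0.49 for S100g.

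The gate's makeup again differed between libraries: proximal cells were 88.9, 46.9, 24.4 and 66.9% of tubule cells and cells gated on injury markers (10 genes, among them Clu, Lcn2, Sox4 and Havcr1) were 0.301, 14.5, 26.0 and 8.39%. Within proximal cells alone 7 of the 8 members were past 2-fold on day 2 against sham (all but S100a1; 10.1% of all genes; medians 2.48 and 0.28). The S100a4 ratio rests on 43 and 15 UMIs. Within the thick ascending limb the same 7 passed (11.9%; medians 2.64 and 0.10). Among them, S100a4 was at 21.7 CPM on day 2 beside 19.6 CPM from the free RNA estimate described below. S100a8 was at 88.2 and S100a9 at 60.9 CPM, beside day 2 medians of 101 and 57.4 CPM over cell types with at least 10 cells. With 1 sham UMI for each, no expression in the thick ascending limb is read from S100a4, S100a8 or S100a9. Proximal cells then had 1 member past 2-fold from day 2 to day 7 (S100g lower, 8.73% of all genes). From day 7 to reversal they had 7 (S100g higher, all but S100a1 of the rest lower, 9.44%). The median S100g level over cell types with at least 10 cells also went from 49.5 CPM on day 7 to 138 CPM after reversal. No change in proximal cells is therefore read from the higher S100g after reversal. Against sham, 4 stayed past 2-fold after reversal (S100a4, S100a6, S100a8 and S100a9; 8.38%). The free RNA estimate of the tubule gate, times the level of a gene in all deposited cells of the library, comes to 11.4, 68.9, 104 and 59.5 CPM for S100a6 and to 1.80, 19.6, 29.9 and 12.9 CPM for S100a4. Proximal S100a6 (7.86, 75.4, 126 and 61.1 CPM) and S100a4 (1.57, 14.0, 26.5 and 11.9 CPM) were near these values, so no expression in proximal cells is read from either. Proximal S100a8 was at 1.47, 104, 174 and 35.8 CPM beside 0.202, 23.2, 40.8 and 15.2 from the same estimate, and S100a11 was also above its own. However, 1 of 186 proximal cells held 104 of the 210 S100a8 UMIs on day 7, and 1 of 562 held 76 of 319 on day 2. The median S100a8 level over cell types with at least 10 cells was 101, 109 and 35.8 CPM on day 2, day 7 and after reversal. No expression in proximal cells is therefore read from S100a8.

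In the thick ascending limb S100a6 was at 10.7, 167, 239 and 324 CPM, above the estimate except in sham. On day 2, 3 of 200 of these cells held 45.0% of the UMIs, and the median cell had 0. Injured cells had 795, 1419, 797 and 1470 CPM, the first of these on 10 sham cells of which 3 held 86.1% of the UMIs. The median injured cell had 1, 2 and 7 UMIs in the 3 later libraries, at similar depths, so the near-equal sums of day 2 and reversed UUO come from different spreads over cells. Thin limb cells had 1216, 2772, 1086 and 1085 CPM, but 3 cells held 86.2% of the UMIs in sham, 67.6% on day 7 (18 cells) and 86.2% after reversal, where there were 9 cells. In intercalated cells S100a6 was at 2.86, 462, 280 and 75.8 CPM, with 53.9% of the day 2 UMIs in 3 of 123 cells. The summed level of the thick ascending limb was highest after reversal, with 32.8% of those UMIs in 3 of 170 cells, but its median cell had 1 UMI on day 7 and 0 after reversal at median depths of 8814.5 and 5500.5 UMIs. Thinned to 1000 UMIs, 16% of cells had a UMI on day 7 (9.43 to 24.7%) and 15.3% after reversal (10.2 to 21.6%). Summed S100a6 in intercalated cells was lower after reversal than on day 7.

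S100a11 was broader. Proximal cells had 104, 560, 552 and 206 CPM, principal cells 621, 2397, 1762 and 1134, intercalated cells 1113, 2424, 2358 and 1717, and injured cells 2121, 2676, 1892 and 2293. Proximal, principal and intercalated cells were lowest in sham, and injured cells, whose sham value rests on 10 cells, were lowest on day 7. S100a10 in proximal cells was at 67.5, 204, 284 and 114 CPM, and T cells had 995, 820, 1396 and 1152 CPM. Among cell types with at least 10 cells this was the highest value except on day 2, when natural killer cells had 851. Natural killer cells numbered only 3 in sham and 8 after reversal. Only after reversal was the highest interval clear of the next, which was endothelium in sham, T cells on day 2 and natural killer cells on day 7.

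**Figure D4:**
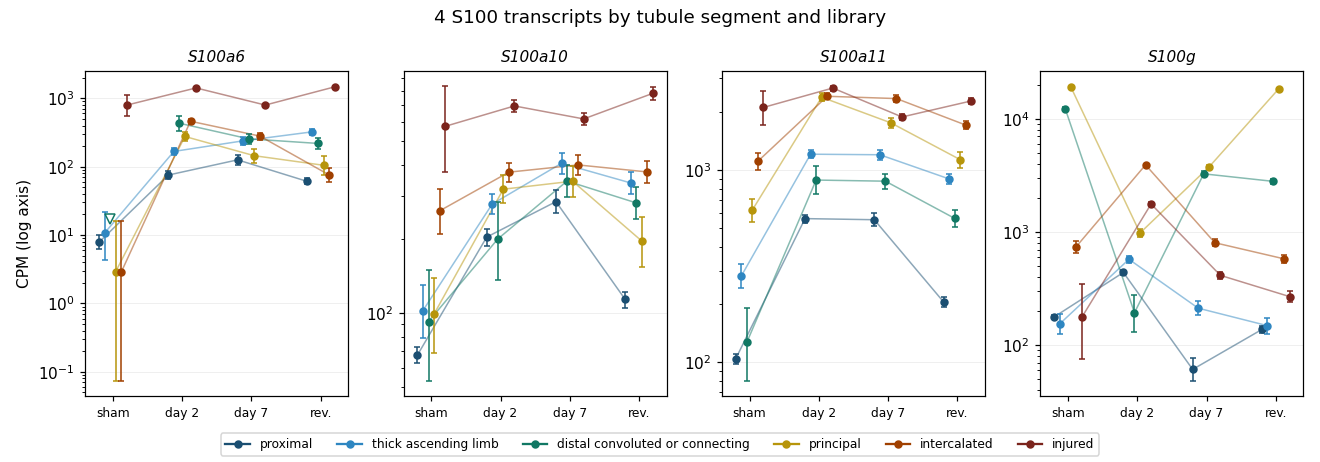
Levels (CPM, log axis with its own range in each panel) of S100a6, S100a10, S100a11 and S100g in 6 tubule subclasses by library, with 95% Poisson intervals; the open triangle is the limit of 3 counts. S100a6 and S100a11 are lower in sham than on day 2 in all 6, while S100g in principal cells is at 19179 CPM in sham, 980 on day 2 and 18320 after reversal.

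S100g differed between segments in direction as well as in level. In the principal gate, named for the water- and sodium-handling cells of the collecting duct, sham had 19179 CPM, day 2 980, day 7 3773 and reversed UUO 18320. In distal convoluted or connecting tubule cells it was at 12285, 194, 3265 and 2803 CPM. Intercalated cells, the acid-base cells beside them, went the other way at 744, 3918, 805 and 580 CPM. Injured cells (177, 1768, 415 and 269), thick ascending limb (154, 575, 213 and 149) and proximal cells (178, 440, 61.3 and 138) were likewise highest on day 2. The tubule gate as a whole hid this, at 959, 1247, 886 and 990 CPM: principal cells held 60.9, 6.43, 35.7 and 64.7% of its S100g UMIs, and intercalated cells 46.7% on day 2.

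These S100g values rest on few cells in part. The median principal cell had 35, 1, 0 and 30 S100g UMIs and the median intercalated cell 3, 20, 1 and 2, so principal medians were also low on days 2 and 7 and the intercalated median was also highest on day 2. In distal convoluted or connecting cells the 3 highest cells held 60.6, 67.7, 46.0 and 46.4% of the UMIs, and without them the level was 5587, 71.0, 1874 and 1555 CPM. Principal cells without their 3 highest had 16539, 494, 2307 and 12473 CPM and intercalated cells 506, 3343, 521 and 299, so the order from sham to day 2 was the same. Injured cells without their 3 highest had 83.0, 980, 279 and 172 CPM, and thick ascending limb cells 142, 331, 78.9 and 122.

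Gate markers describe the cells but had to be present in them. Principal cells had 6884, 5498, 2441 and 4607 CPM of the water channel Aqp2, and intercalated cells 7111, 5789, 4973 and 5471 CPM of the proton pump subunit Atp6v1g3. Aqp2 in intercalated cells was at 77.3, 46.2, 15.0 and 38.9 CPM. Calb1, the other calcium buffer of the distal nephron, was at 2297, 352, 434 and 3688 CPM in principal cells and at 2876, 131, 464 and 1032 in distal convoluted or connecting cells, lower on day 2 than in sham in both, as S100g was. Principal cells with a Calb1 UMI had 21160, 1165, 4345 and 21918 CPM of S100g, so the low day 2 value was also seen in them. Those without one (9, 20, 25 and 11 cells) had 952, 312, 1563 and 2799 CPM. They were also lowest on day 2, but were higher on day 7 and after reversal than in sham. Distal convoluted or connecting cells with a Calb1 UMI had 14412, 423, 9378 and 5441 CPM of S100g. In sham 55 of the 64 principal cells had a Calb1 UMI. Whether the mix of connecting tubule and collecting duct cells in that gate differed between libraries was not tested. In day 2 intercalated cells S100g was at 2897 CPM with and 4051 CPM without a Calb1 UMI.

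S100a1, best known from muscle, had 93.9, 87.6, 67.5 and 81.5% of its UMIs in the tubule gate. In sham that gate held 11258820 of all 12457138 kept UMIs, so the sham share is near that of all genes. The gate level of S100a1 was 523, 1027, 1118 and 619 CPM, beside 503, 621, 367 and 403 CPM in all kept cells. The gate's ratio of day 2 to sham, 0.97, lay just inside the limit of 1. In sham the median level over cell types with at least 10 cells was 476 CPM, above that of proximal cells. S100a1 was thus not particular to tubule in sham. Intercalated cells were highest in every library at 1843, 2413, 2499 and 1922 CPM, with intervals clear of the next segment. Principal cells had 1190, 1324, 1139 and 1204 CPM and proximal cells 415, 501, 314 and 325. Within proximal cells the day 2 ratio was 0.27, smaller than in the gate sum. In phagocytes S100a1 was at 132, 115, 125 and 123 CPM, and all 4 intervals overlapped.

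Other genes of the same pathways were taken from lists. Beside each count, the share over all genes in tubule is the 25.5% (day 2) or 20.9% (reversed UUO) against sham given above. Of 9 related genes, which are 8 other S100 genes and S100pbp, a gene for an S100-binding protein, 5 had 30 UMIs in tubule on day 2 and sham, and 2 were past 2-fold: S100a13 (34.9, 114, 149 and 85.6 CPM) and S100a14 (0.178, 16.3, 10.4 and 5.74 CPM), both higher. Of 9 intracellular partners 7 were higher in tubule on day 2 than in sham (Anxa1, Anxa2, Anxa5, Anxa6, Ahnak, Myh9 and Sugt1), with a median of 2.05, and 6 after reversal, with a median of 1.79. Anxa2, which joins S100a10 at the membrane, was at 18.9, 176, 199 and 138 CPM. In phagocytes Anxa2 was the 1 partner of 9 past 2-fold from day 2 to day 7, at 569 and 254 CPM, a share near the 10.0% of all genes. Of 7 receptors 5 had enough UMIs, and 2 of these were higher in tubule on day 2 (Cd14 and Alcam), and Cd14, a co-receptor of Tlr4, was at 1520, 2302 and 1121 CPM in neutrophils beside 1.15, 42.9, 69.5 and 23.4 CPM in tubule. Of 9 calcium transport genes 8 had enough UMIs, and Trpv5 and Trpv6, the apical calcium channels, were higher in tubule on day 2 and Calb1 lower. Trpv5 was at 78.7 CPM in sham and 86.6 on day 2 in principal cells, and at 11.6 and 18.8 in distal convoluted or connecting cells. Both pairs of intervals overlapped, while intercalated cells had 0 and 38.6 CPM. In these tubule sums a different mix of cells and a different level per cell cannot be told apart. After reversal 5 of the 9 calcium transport genes were higher in tubule than in sham (Trpv5, Trpv6, Slc8a1, Atp2b1 and Atp2b4) and 0 lower. Also higher then were 3 of 6 receptors (Ager, Cd14 and Alcam) and 2 of 4 related genes (S100a13 and S100a14). In intercalated cells Trpv6 was at 5.72, 118, 47.8 and 5.12 CPM.

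Likeness of pattern was measured as the Pearson correlation of log2(CPM + 1) over 47 sums of a subclass in a library with at least 30 cells, among 7990 genes that reached 50 CPM. The sums share libraries and depth, and the values describe these libraries only. No neutrophil sum is among them, since each held under 30 cells, so the values for S100a8 and S100a9 come from other cell types only. S100a8 was most like S100a9 (r = 0.97), then Slpi (0.84) and Ifitm1 (0.79). S100a6 was most like Socs3 (0.89), Anxa2 (0.88) and Tagln2 (0.87), and S100g most like Pgam2 (0.89), Ptgfr (0.87) and Calb1 (0.86). S100a1 was nearest to Mcee (0.94), S100a4 to Ppp4c (0.87), S100a10 to Mitd1 (0.81) and S100a11 to Plp2 (0.77). Among members, S100a1 went with S100g (0.76) and against S100a4 (-0.66), and S100a6 went with S100a4 (0.71) and S100a10 (0.71).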

How the data were processed

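Raw UMI counts per gene and cell were deposited by the authors for the 4 droplet libraries (10x 3′ V2), and a table of read counts for 768 Smart-seq2 wells. The submitters' processing notes name Cell Ranger, STAR and GRCm38/mm10, with no versions given. No further normalization by the authors is stated.

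Barcodes needed 200 genes or more and a mitochondrial share no higher than 50%, and the highest Scrublet scores (scanpy 1.11.5) were removed as doublets at 0.8% per 1000 cells, leaving 3753, 2157, 4292 and 3151 cells (sham, day 2, day 7, reversed UUO) of 16876 deposited, with 12457138, 16786703, 28683819 and 20034419 UMIs. Each cell was scored on 22 marker lists with 182 genes, none a member. It entered the best class if at least 3 of that list's markers were detected and the score was at least 1.5 times that of any other class. Scoring details were set after the files were seen, and the members and lists were chosen with earlier results of these data known. The named genes are the 8 members, the genes of fixed lists that passed 2-fold or are known partners, and the 3 genes most like each member. Gate markers named with values (Retnlg, Aqp2, Atp6v1g3) were chosen after their values were seen. UMIs were summed by gate and library. Poisson, binomial and conditional binomial intervals are exact at 95% and cover counting error only. With 1 library of pooled mice in each group no test between groups was made. edgeR 4.0.16 gave TMM factors only. Alternatives were stricter quality limits, gate margins, doublet removal, thinning, scaling, UMI minimums, pseudocounts and free RNA subtraction. Splits by neutrophil marker or Calb1, single subclasses, a free RNA level for single segments, and leaving out the highest cells were added after seeing the data. Promoters came from RefSeq.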

Additional observations from a re-analysis of the deposited data

Results flagged for a closer look

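S100a4 and S100g had ratios of opposite sign in different cell types of the same libraries. These differences between cell types were not tested, since each group was 1 library. From day 2 to day 7 the log2 ratio of S100a4 was -1.70 in macrophages and 1.39 in type 1 conventional dendritic cells, the latter on 5 and 60 UMIs. The levels in these dendritic cells, given above, lay below the median over cell types with at least 10 cells (24.6 and 47.9 CPM). No expression, and so no direction, is read from S100a4 in them. Over the same interval S100g had log2 ratios of -2.82 in proximal cells, -1.43 in the thick ascending limb, -2.28 in intercalated cells and -2.09 in injured cells, against 4.07 in distal convoluted or connecting cells and 1.94 in principal cells. The median distal convoluted or connecting cell had 0 S100g UMIs on both days, and the median principal cell had 1 and 0. Both positive ratios thus come from part of the cells. From sham to day 2 the S100g ratios were 1.30 in proximal cells, 1.89 in the thick ascending limb and 2.39 in intercalated cells, against -1.30 in the thin limb (23 UMIs in sham and 22 on day 2, at 148 and 59.4 CPM beside 95.6 and 64.7 CPM in endothelium), -5.98 in distal convoluted or connecting cells and -4.29 in principal cells.

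The Smart-seq2 wells lie outside the comparisons, as all time points were mixed in them and how the wells were selected is not given in the sources used here. Their makeup is therefore not read as that of the kidney. Of 768 wells 724 had at least 1000 genes, and 596 of these passed the phagocyte gate, 5 the tubule gate and 0 the neutrophil gate. A read was found in 42.8% of the phagocyte wells for S100a1, 61.1% for S100a4, 66.3% for S100a6, 57.0% for S100a10 and 54.9% for S100a11. S100a8 had a read in 2.52% of them, S100g in 3.86%, and S100a9 in 1 well.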

How the results depend on the processing

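The count of members past 2-fold was compared under each alternative. In neutrophils from day 2 to day 7 it was 1 instead of 0 with a mitochondrial limit of 20%, without doublet removal, with TMM factors, with a minimum of 10 UMIs and with free RNA subtracted. In neutrophils from day 7 to reversal it was 1 instead of 0 with cells thinned to 1000 UMIs, with TMM factors and with a minimum of 10 UMIs. In tubule it was 1 instead of 0 from day 2 to day 7 with the 20% limit, and 2 instead of 4 from day 7 to reversal with TMM factors. The other 88 counts stayed within 1.5 times. The S100a4 log2 ratio, tubule gate, came to -0.24 with free RNA subtracted, for day 2 against sham and for reversed against sham alike. The subtraction left no S100a4 on day 2 or after reversal. This value is therefore set by the added 1 CPM and the sham remainder and gives no direction. Of the other log2 ratios 561 moved by less than their interval and 221 by more. Ratios not past 2-fold changed sign most often with TMM factors and with thinning, 8 under each. The cause of these shifts was not tested. With the gate margin doubled, neutrophils numbered 5, 9 and 3, and no value was given. No paired analysis was possible because each group was 1 library of pooled mice with no replicate numbers. In neutrophils 4 of the 8 members had under 30 UMIs, and whether depth or a low level sets this was not tested.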
